A study of Mus musculus with 6 samples.

Results

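Phase II conjugation enzymes attach a polar group to drugs, steroids, bile acids and reactive metabolites. The genes described here were chosen by name and by summed counts: all listed genes whose symbol began with Ugt1, Ugt2, Ugt3, Gsta, Gstm, Gstp, Gstt, Gstz, Gsto, Gstk, Mgst or Sult and that had 30 or more unique molecular identifiers (UMIs, one per captured RNA molecule) in sum over all barcodes. Of 32285 listed genes, 67 symbols matched and 56 reached the limit. Because the limit used summed counts, abundance itself is a description here. Mgst2 with 47 UMIs, Gsto2 with 104 and Sult2a1 with 112 stood just inside it. Sult3a1 with 25 UMIs, Sult2a3 with 19 and Sult2a4 with 15 stood just outside. The 56 genes had 785759 UMIs in all.

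Single-nucleus RNA-seq was performed on snap-frozen livers of 6 male mice, 2 per group, from a cross of 129A1/SvIm and C57BL/6J mice known as DIAMOND. The Ctrl mice ate a Chow Diet for 40 weeks. The Pre-T (pre-tumor) mice spent 40 weeks on a Western Diet of high-fat food plus sweetened drinking water. The Post-T (post-tumor) mice spent 48 weeks on it. All mice began their diet at 2 months of age. The Post-T libraries carry "Tumor" in their titles and liver as their tissue, so which part of the liver was sampled cannot be read from the labels. Tumor stage and the longer diet cannot be told apart in the Post-T mice.

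The 6 libraries held 22453658 to 40307564 UMIs, and 5323 to 7846 nuclei per mouse were kept, 39012 of 41882 barcodes. There were 181 barcode sequences present in more than one library. Nuclei were clustered without the 56 genes and clusters were named from marker lists. Hepatocytes numbered 12037, from 1240 to 2694 per mouse, with a median depth from 1949.5 UMIs in Post-T 1 to 9394 in Post-T 2. Every Hepatocyte marker was detected in the hepatocytes of each mouse. Their summed level was 28284 and 24512 UMIs per 1000000 in Ctrl against 13129 to 16885 in the other 4 mice. These markers were also measured in every other class, so detection alone does not separate hepatocytes. In the cluster holding 1222 Post-T 2 hepatocytes, 4 of the 10 markers stood at least 1.5-fold above other named classes of the same mice. In the other clusters of these hepatocytes, 5 to 9 did. The median marker ratio of T or NK cells to hepatocytes in Post-T 2 was 1.03. Hepatocytes of the 3 groups lay mostly in different clusters, and so did those of single mice within 2 of the groups. The Post-T mice lay mostly in 1 cluster each. Of Ctrl 1 and Ctrl 2, 1 cluster held 2114 and 57 nuclei, another 156 and 1942, and a shared one 421 and 528. The Pre-T mice shared 1 cluster, with 1497 and 1463 nuclei. Another 4602 hepatocyte nuclei of low depth, which made up 18.6% and 20.5% of the Ctrl nuclei, 30.9% of Post-T 2 and under 0.34% of the other mice, were kept apart by a depth threshold set after the data were seen. Another 2 clusters stayed unnamed. One was a deep cluster of 1508 nuclei from Pre-T 1 and Post-T 1. The other was shallow, with a median of 789 UMIs, and 2588 of its 2756 nuclei came from Pre-T 2, so that unnamed nuclei were 33.0% of that mouse. In the shallow cluster all 10 Hepatocyte markers were raised, and its leading genes also included Lyz2, C1qb, Igkc and Saa1. Marker RNA of other cell types was measured in the named hepatocytes. The 6 erythroid markers summed to 155 and 51.2 CPM (UMIs per 1000000) in Ctrl, 265 and 767 in Pre-T, and 2284 and 264 in Post-T, with 2 at 0 in Ctrl 2. The 9 T cell markers summed to 10.3 and 18.0 CPM in Ctrl and 102 to 149 in the other 4 mice, with 1 at 0 in Pre-T 1. The 12 macrophage markers summed to 55.5 and 43.7 CPM in Ctrl, 115 and 355 in Pre-T, and 191 and 17.4 in Post-T, with 1 at 0 in each Ctrl mouse and 2 in Post-T 2. The part of these nuclei and markers in the results was not tested, except that the low depth nuclei and each unnamed cluster were also added to the hepatocytes in turn.

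As background, 3 enzyme groups make up the set. UDP-glucuronosyltransferases (Ugt) of the endoplasmic reticulum transfer a sugar, usually glucuronic acid, and clear bilirubin, steroids and many drugs. Glutathione S-transferases (Gst) and their membrane-bound relatives (Mgst) join glutathione to electrophiles. Sulfotransferases (Sult) move sulfate from the donor PAPS to phenols, steroids and bile acids. The liver, and the hepatocyte in particular, is where most of these enzymes are made, and the products leave through bile or blood.

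Gene models were taken from GENCODE on GRCm38 (mm10). The 9 Ugt1 genes overlapped on the plus strand of chromosome 1, from Ugt1a10 at chr1:88055388-88219004 to Ugt1a1 at chr1:88211959-88218997. They share their last exons and differ in the first, so UMIs read from the shared 3′ end cannot be assigned to one of them with confidence. Of the 25-base words in the last 500 bases of the Ugt1a5 transcripts, 100% were also present in another of the 56 genes. The Ugt2 genes lay apart from each other on chromosome 5, and Ugt2b1 and Ugt2a3 shared 0% of such words with any of the 56. Gstp1 shared 43.7% and Gstp2 60.5% of its words with the other, and Sult2a2 shared 41.6% and Sult2a5 57.4% with Sult2a relatives, so their split is uncertain. Gsto1 overlaps Cfap43 on the opposite strand. Sult5a1 at chr8:123140192-123158315 and Sult2a8 at chr7:14410686-14446769, both on the minus strand, overlap no other listed gene and shared 0%.

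Promoter sequence is shown for 4 of the 5 genes called in hepatocytes (described with their values further on) and for Gsta3, the gene with the most UMIs. Each run is the 250 bases before the RefSeq start on GRCm38.p6, 5′ to 3′ on the gene's strand. Promoters were found for 49 of the 56 genes. Capitals mark 2 motifs searched on both strands. TGACNNNGC is the core of the antioxidant response element, which binds the stress regulator Nrf2, and GTTAAT is a half-site of the hepatocyte factor HNF1, chosen after the full HNF1 motif was found in 0 of the promoters of these genes.
Gsta3 (plus strand, chr1:21240335-21240584): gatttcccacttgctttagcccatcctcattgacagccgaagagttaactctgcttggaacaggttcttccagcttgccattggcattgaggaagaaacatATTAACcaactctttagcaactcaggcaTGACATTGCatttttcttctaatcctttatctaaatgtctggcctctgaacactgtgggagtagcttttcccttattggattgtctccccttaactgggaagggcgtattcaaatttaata
Ugt2a3 (minus strand, chr5:87337196-87337445): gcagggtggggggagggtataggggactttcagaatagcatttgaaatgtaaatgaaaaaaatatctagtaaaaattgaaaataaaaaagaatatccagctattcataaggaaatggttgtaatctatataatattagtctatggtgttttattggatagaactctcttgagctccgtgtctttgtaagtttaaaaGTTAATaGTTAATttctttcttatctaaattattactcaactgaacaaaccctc
Ugt2b1 (minus strand, chr5:86926504-86926753): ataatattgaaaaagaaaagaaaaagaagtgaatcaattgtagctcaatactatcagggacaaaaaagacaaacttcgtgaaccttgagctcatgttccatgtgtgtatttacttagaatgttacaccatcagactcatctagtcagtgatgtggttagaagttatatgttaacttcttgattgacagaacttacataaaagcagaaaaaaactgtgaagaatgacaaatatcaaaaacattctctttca
Ugt1a5 (plus strand, chr1:88165762-88166011): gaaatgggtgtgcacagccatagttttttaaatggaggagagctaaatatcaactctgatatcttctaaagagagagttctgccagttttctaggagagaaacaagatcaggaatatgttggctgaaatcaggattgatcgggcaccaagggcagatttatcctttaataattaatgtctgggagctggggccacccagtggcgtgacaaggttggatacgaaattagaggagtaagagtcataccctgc
Sult5a1 (minus strand, chr8:123158281-123158530): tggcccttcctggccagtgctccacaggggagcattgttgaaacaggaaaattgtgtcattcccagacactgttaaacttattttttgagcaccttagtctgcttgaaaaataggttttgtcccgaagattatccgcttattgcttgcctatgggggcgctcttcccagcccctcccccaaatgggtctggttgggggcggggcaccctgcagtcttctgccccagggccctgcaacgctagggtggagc
The antioxidant core was present in 4 of 61 promoters of these genes (Gsta3, Gstm5, Gstm7 and Mgst1), or 6.56%, and in 10.2% of all 32851 promoters. The HNF1 half-site was present in 10 of 61, or 16.4%, and in 6.43% of all promoters. Ugt2a3 held 2 half-sites 54 and 47 bases before its start. Neither motif was present in the windows of Ugt2b1, Ugt1a5 and Sult5a1.

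In hepatocytes the 56 genes together took 0.600% and 0.519% of UMIs in the Ctrl mice, 0.434% and 0.440% in the Pre-T mice, and 0.256% and 0.658% in the Post-T mice. The 2 Post-T mice thus lay at the ends of the range. Without Gsta3, the largest single contributor in Post-T 2, the shares were 0.545% and 0.449% in Ctrl, 0.349% and 0.359% in Pre-T, and 0.199% and 0.376% in Post-T. The sulfotransferases took 0.183% and 0.145% in Ctrl and 0.0364% to 0.0769% in the other 4 mice. As CPM, the family summed to 1826 and 1452 in Ctrl, 364 and 464 in Pre-T, and 377 and 769 in Post-T. Most of the Ctrl sum was Sult2a8, whose levels are given further on. The other sulfotransferases together were higher in both Post-T mice than in both Ctrl mice, and overlapped between Pre-T and Ctrl. The Ugt2 genes took 0.182% and 0.137% in Ctrl, 0.107% and 0.0934% in Pre-T, and 0.0553% and 0.108% in Post-T. Alpha class transferases (Gsta) ranged from 0.0583% to 0.0882% in 5 mice and stood at 0.289% in Post-T 2.

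**Figure D1:**
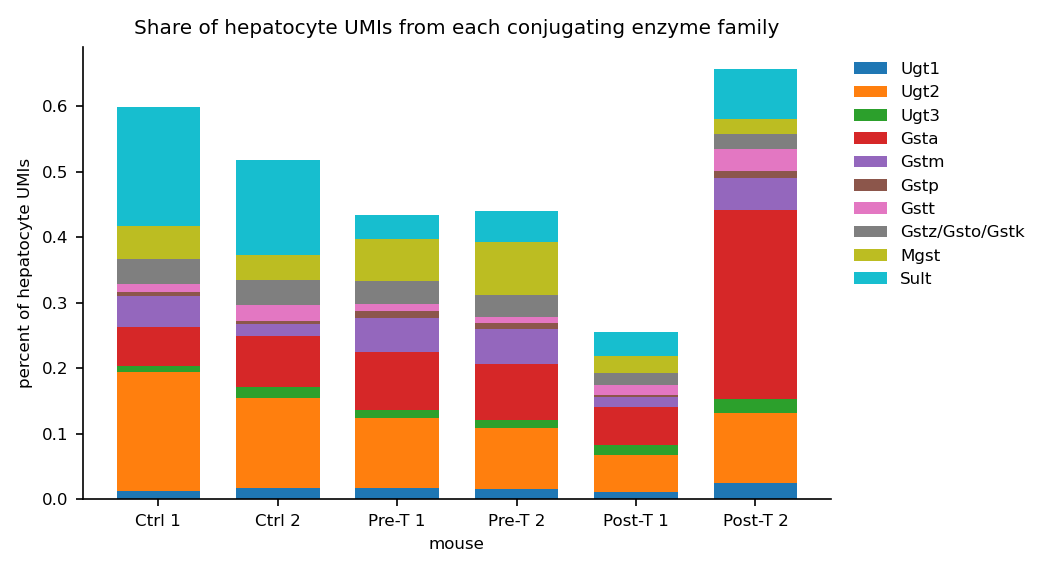
Stacked bars give, for each of the 6 mice, the percent of hepatocyte UMIs taken by each of 10 enzyme families, with no error bars because each bar is 1 mouse. The sulfotransferase segment is tall in both Ctrl mice (0.183% and 0.145%), where Sult2a8 makes up most of it. The Gsta segment is tall in Post-T 2 (0.289%).

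Levels below are UMIs per 1000000 UMIs (CPM) of the summed hepatocyte nuclei of a mouse, and a gene was called when edgeR's quasi-likelihood test over all 18568 tested genes gave an adjusted p under 0.05. Of the 56 genes, 55 had enough hepatocyte UMIs to be tested. In Post-T against Ctrl, 5 were called, 4 lower and 1 higher, where 4.04% of all tested genes were called. In Post-T against Pre-T, 2 were called, 1 in each direction, where 1.23% of all were. In Pre-T against Ctrl, edgeR called 0 of them, against 0.0162% of all genes, and DESeq2 called 6 against 4.88% of all. At an unadjusted edgeR p under 0.05 stood 13 of the 55, where 2834 of all 18568 genes did. DESeq2 called 19 in Post-T against Ctrl and 12 in Post-T against Pre-T, where it called 12.6% and 12.0% of all genes. The 3 comparisons share groups of mice. The median log2 difference of the 55 was −0.27 in Pre-T against Ctrl, −0.17 in Post-T against Ctrl and 0.12 in Post-T against Pre-T, and over all genes it was 0.03, 0.00 and −0.05. The 2 groups of mice did not overlap in level for 30, 29 and 30 of the genes, where 62.9%, 51.1% and 56.7% of all genes did not.

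The calls rest on few mice. Without Ctrl 1, Ctrl 2, Pre-T 1 or Pre-T 2, in turn, no gene of the 56 was called in any of the 3 hepatocyte comparisons, where 0.0% to 0.0718% of all genes were. Without Post-T 1, 20 were called in Post-T against Ctrl and 22 in Post-T against Pre-T, where 15.9% and 18.6% of all genes were. Without Post-T 2, 17 and 7 were called, where 13.5% and 8.49% of all genes were. In Pre-T against Ctrl, 8 were called without Post-T 1 and 8 without Post-T 2, where 6.75% and 6.69% of all genes were. Fitting only the 4 mice of a comparison gave 9 in Pre-T against Ctrl, where 7.45% of all genes were called. It gave 0 in Post-T against Ctrl and against Pre-T, where 0.102% and 0.0% of all genes were called. All 5 genes called in Post-T against Ctrl were among those called without Post-T 1 and among those called without Post-T 2.

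Ugt2b1, a hepatic glucuronosyltransferase of steroids and drugs, was the only one of the 56 called lower in both Post-T comparisons of hepatocytes. It was at 203 and 112 CPM in the Ctrl mice, 65.9 and 60.5 in the Pre-T mice, and 11.7 and 8.6 in the Post-T mice. The 3 groups did not overlap and stood in a descending series. Each SE of a log2 difference was worked back from the F statistic of edgeR's test. Post-T was lower than Ctrl by a log2 difference of −3.98 ± 0.38 (SE, edgeR adjusted p = 0.0132) and lower than Pre-T by −2.33 ± 0.36 (edgeR adjusted p = 0.0498). The second call sat at the threshold and was lost with RLE size factors (edgeR adjusted p = 0.0504), clusters at a resolution of 2 (0.0578), the replicate number as a block (0.0770), and the unnamed shallow (0.0597) or deep (0.106) cluster added. Pre-T against Ctrl was −1.65 ± 0.34 with an edgeR adjusted p of 0.162 and a DESeq2 adjusted p of 0.0029.

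Ugt2a3, a neighbor on chromosome 5 whose promoter holds the 2 half-sites above, showed the same order. Its level was 101 and 76.8 CPM in Ctrl, 54.5 and 56.0 in Pre-T, and 15.9 and 18.7 in Post-T. Post-T fell below Ctrl by a log2 difference of −2.35 ± 0.28 (SE, edgeR adjusted p = 0.0215).

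Other Ugt2 genes differed in how they stood. Ugt2b5 had 571 and 455 CPM in Ctrl, 222 and 199 in Pre-T, and 116 and 194 in Post-T, with Ctrl apart from the rest. Its log2 differences from Ctrl were −1.60 ± 0.38 in Pre-T and −1.70 ± 0.38 in Post-T, with edgeR adjusted p-values of 0.183 and 0.0694 and DESeq2 values of 0.0049 and 0.0014. Ugt2b38 had 94 UMIs in the Ctrl hepatocytes, 1 in Pre-T and 2 in Post-T, ratios of 55.3 (95% interval 9.69 to 2209, counting error only) and 37.6 (10.1 to 315). Ugt2b36, the most abundant of the family, stayed within a narrower band, at 639 and 558 CPM in Ctrl, 492 and 434 in Pre-T, and 304 and 620 in Post-T, and Ctrl and Post-T overlapped (edgeR adjusted p = 0.667). Ugt2b35 had 196 and 116 CPM in Ctrl and 43.7 and 101 in Post-T (edgeR adjusted p = 0.269).

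Ugt1a5 was the only one of the 56 called higher in hepatocytes. Its level was 7.6 and 8.1 CPM in Ctrl, 5.4 and 5.9 in Pre-T, and 31.7 and 28.5 in Post-T. Both Post-T mice stood far above the other 4. The log2 difference was 1.95 ± 0.23 against Ctrl (SE, edgeR adjusted p = 0.0212) and 2.73 ± 0.24 against Pre-T (edgeR adjusted p = 0.0282). With the unnamed deep cluster added both calls were lost (edgeR adjusted p = 0.0524 and 0.0747), and the second was lost with the replicate number as a block (0.0684). Other genes of the locus did not pass edgeR's test. Ugt1a1, the bilirubin-conjugating enzyme, had 11.5 and 13.6 CPM in Ctrl and 18.7 and 37.7 in Post-T (edgeR adjusted p = 0.155), and Ugt1a10 had 3.8 and 2.8 against 6.6 and 19.8 (edgeR adjusted p = 0.132, DESeq2 0.029). Ugt1a6a, a phenol-conjugating form and the most abundant of the locus, overlapped between all groups, from 36.3 to 104 CPM. Of Ugt1a9, levels were 11.6 and 14.1 in Ctrl, 26.1 and 21.6 in Pre-T, and 5.4 and 23.7 in Post-T. The summed Ugt1 share stood at 0.0114% in Post-T 1, the lowest of the 6 mice, and at 0.0243% in Post-T 2, the highest, whereas Ugt1a5 was high in both.

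The Ugt3 enzymes use sugars other than glucuronic acid. Ugt3a2 had 87.4 and 145 CPM in Ctrl, 94.6 and 101 in Pre-T, and 141 and 206 in Post-T (Post-T against Pre-T, edgeR adjusted p = 0.122, DESeq2 0.028). Ugt3a1 had 8.6 and 15.2 in Ctrl, 33.8 and 26.9 in Pre-T, and 13.5 and 2.0 in Post-T (Post-T against Pre-T, edgeR adjusted p = 0.227).

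**Figure D2:**
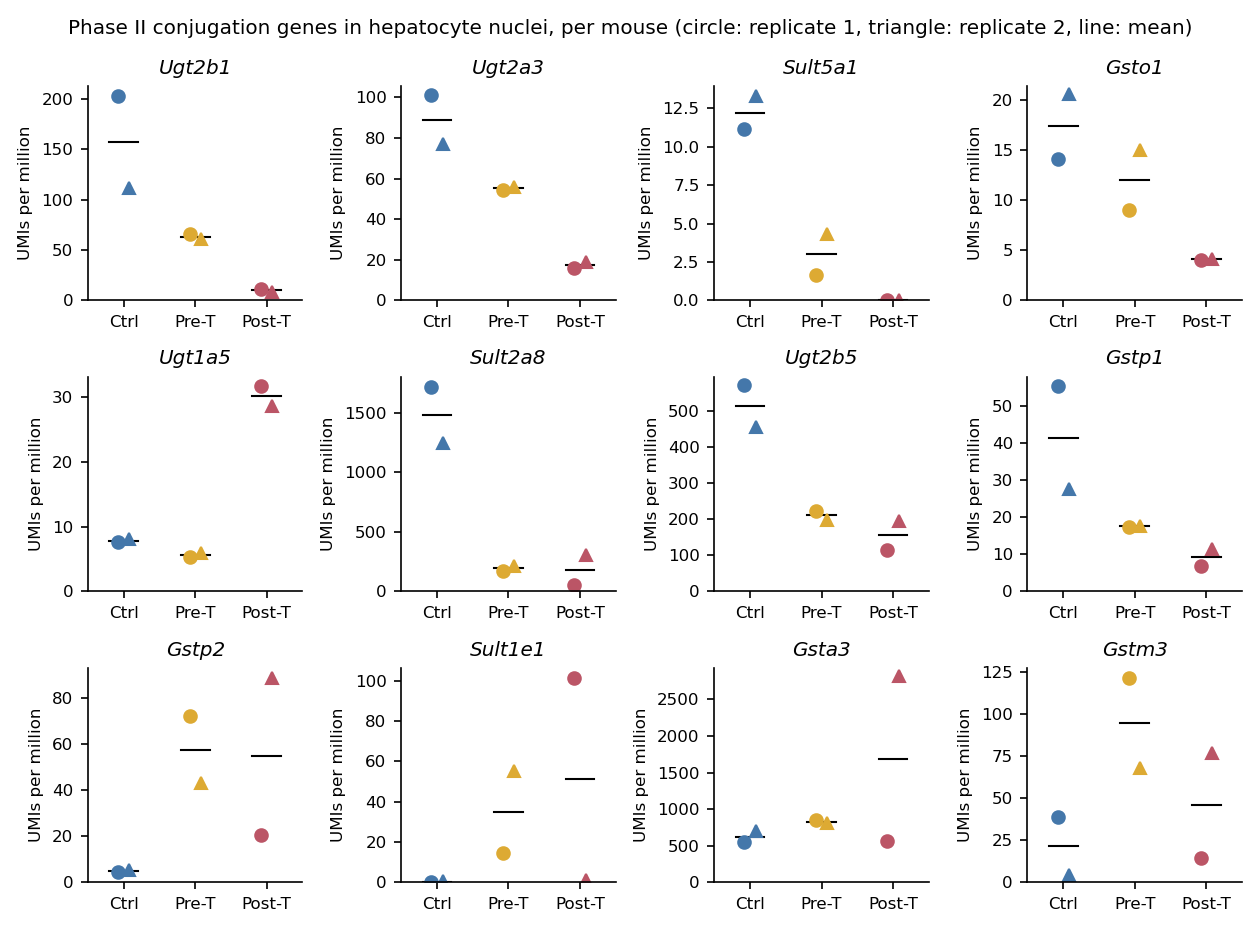
Each panel gives 1 gene's hepatocyte level in UMIs per 1000000 for the 6 mice, with circles for replicate 1, triangles for replicate 2 and a line at the group mean. Ugt2b1 and Ugt2a3 descend from Ctrl to Post-T, Ugt1a5 stands high in both Post-T mice, and Sult1e1, Gsta3 and Gstp2 differ widely between the 2 Post-T mice.

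Among the sulfotransferases, Sult5a1 was the only one called in hepatocytes. It was at 11.2 and 13.3 CPM in Ctrl, 1.6 and 4.3 in Pre-T, and 0 in both Post-T mice. Ctrl hepatocytes held 349 UMIs of it and Post-T hepatocytes 0, at a floor of 3 counts over the group of 0.131 CPM, so Ctrl was at least 93.2-fold higher than Post-T. The call was made by edgeR with an adjusted p of 0.0246. Against Pre-T, with 50 UMIs, the bound was at least 22.7-fold, with an edgeR adjusted p of 0.0556 and a DESeq2 value of 0.00021.

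Sult2a8, a liver sulfotransferase of bile acids, was the most abundant of the 56 genes in the Ctrl mice. It had 1718 and 1249 CPM in Ctrl, 174 and 211 in Pre-T, and 53.0 and 302 in Post-T. Both Western Diet groups lay below both Ctrl mice, and the Post-T mice differed from each other more than the Pre-T mice did. The ratio of group means was 0.13 for Pre-T and 0.12 for Post-T against Ctrl. The log2 differences were −3.27 ± 0.86 and −2.98 ± 0.85, with edgeR adjusted p-values of 0.211 and 0.112 and DESeq2 values of 0.00079 and 0.0014. In the main fit the differences thus did not pass edgeR's threshold adjusted over all genes. edgeR called Sult2a8 in Pre-T against Ctrl with only the 4 mice of the comparison fitted (7.45% of all genes called). With each nucleus named on its own, it was called in both comparisons (0.29% and 5.3% of all genes). After thinning each nucleus to 500 UMIs, a Sult2a8 UMI was present in 47.1% and 29.7% of Ctrl hepatocytes, 5.64% and 8.25% of Pre-T and 2.55% and 13.1% of Post-T. As counted, the Sult2a8 shares ran from 86.7% in Ctrl 1 to 10.4% in Post-T 1. In endothelial nuclei, taken as the comparison class, 25.3% and 18.5% of thinned Ctrl nuclei held a Sult2a8 UMI, and 0.530% to 3.45% did in the Western Diet mice. The source of the UMIs in endothelial nuclei was not tested. Median depth was 1949.5 to 9394 UMIs in hepatocytes and 1136 to 2052 in endothelial nuclei.

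Sult2a1, Sult2a2 and Sult2a5 stood high in a single mouse, Post-T 2. Sult2a2, a hydroxysteroid sulfotransferase, had 0 UMIs in the Ctrl hepatocytes, 1.5 and 0.24 CPM in Pre-T, and 0.94 and 31.1 in Post-T. Over the Post-T group, which held 393 UMIs, the level was at least 164-fold higher than the Ctrl floor of 0.105 CPM, and nearly all of it came from Post-T 2. Sult2a1 and Sult2a5 showed the same mouse, at 3.8 and 3.7 CPM in Post-T 2 and 0.82 or less elsewhere. None passed edgeR's test in Post-T against Ctrl (adjusted p = 0.196, 0.119 and 0.178 for Sult2a1, Sult2a2 and Sult2a5), and DESeq2 gave 0.040, 0.0026 and 0.074. Sult2a7 had 0.89 and 1.6 CPM in Ctrl, 1.2 and 0.84 in Pre-T, and 0.19 and 0.081 in Post-T. Ctrl hepatocytes held 35 UMIs of Sult2a7 and Post-T hepatocytes 3, a ratio of 9.34 (95% interval 2.95 to 47.5, counting error only), with an edgeR adjusted p of 0.0752.

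Sult1e1, which inactivates estrogens, had 0 and 0.64 CPM in Ctrl, 14.8 and 55.3 in Pre-T, and 101 and 0.97 in Post-T. It was thus near absent in Ctrl and in Post-T 2 and well detected in the other 3 mice. edgeR gave adjusted p-values of 0.283 for Pre-T and 0.135 for Post-T against Ctrl, and DESeq2 0.108 and 0.030. Sult1a1, the phenol sulfotransferase, had 57.8 and 126 CPM in Ctrl, 103 and 114 in Pre-T, and 171 and 328 in Post-T (Post-T against Ctrl 1.51 ± 0.49, edgeR adjusted p = 0.138, DESeq2 0.029). Sult1d1, which acts on catecholamines, ran from 20.4 to 70.1 CPM with overlap of Ctrl and Post-T, and Sult1b1, which acts on thyroid hormones, from 8.8 to 24.0.

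Among the glutathione transferases, Gsto1, which also reduces dehydroascorbate, was the only one called. It had 14.2 and 20.6 CPM in Ctrl, 9.0 and 15 in Pre-T, and 4.1 in both Post-T mice. Post-T fell below Ctrl by a log2 difference of −2.06 ± 0.37 (SE, edgeR adjusted p = 0.0433). The call was lost with the replicate number as a block (edgeR adjusted p = 0.0554), with clusters at a resolution of 2 (0.0535), with each nucleus named on its own (0.0524), and with the low depth nuclei (0.0508), the unnamed shallow cluster (0.0701) or the unnamed deep cluster (0.0924) added. Gstz1, which isomerizes maleylacetoacetate in tyrosine breakdown, had 351 and 356 CPM in Ctrl, 314 and 293 in Pre-T, and 180 and 219 in Post-T, in non-overlapping groups (Post-T against Ctrl, edgeR adjusted p = 0.130). Gstk1, of mitochondria and peroxisomes, had 23.6 and 13.7 in Ctrl, 29.9 and 30.5 in Pre-T, and 8.7 and 5.4 in Post-T (Post-T against Pre-T, edgeR adjusted p = 0.0666, DESeq2 0.0020).

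The pi class genes Gstp1 and Gstp2 stood in opposite order. Gstp1 had 55.3 and 27.5 CPM in Ctrl, 17.3 and 17.7 in Pre-T, and 6.8 and 11.5 in Post-T. Gstp2 had 4.3 and 5.4 in Ctrl, 72.0 and 43.1 in Pre-T, and 20.6 and 88.6 in Post-T. In each gene the Ctrl mice lay outside the range of the other 4. Against Ctrl, Gstp1 differed by −1.57 ± 0.47 in Pre-T and −2.15 ± 0.48 in Post-T, and Gstp2 by 3.26 ± 0.77 and 3.58 ± 0.78. The edgeR adjusted p-values were 0.241 and 0.0703 for Gstp1 and 0.185 and 0.0666 for Gstp2, and DESeq2 gave 0.055, 0.0015, 0.00048 and 1.8e-05 in the same order. Gstp3 had 12.0 ± 0.468, 17.0 ± 2.99 and 8.53 ± 2.98 CPM (mean ± SD, n = 2) in Ctrl, Pre-T and Post-T.

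Gsta3, the alpha class enzyme that conjugates aflatoxin epoxide in mice, had 547 and 701 CPM in Ctrl, 855 and 807 in Pre-T, and 564 and 2814 in Post-T. Post-T 2 stood apart from the other 5 mice, and the test gave an edgeR adjusted p of 0.267 for Post-T against Ctrl. After thinning to 500 UMIs, 71.3% of the Post-T 2 hepatocytes held a Gsta3 UMI, against 19.97% to 34.4% in the other mice. In endothelial nuclei thinned likewise, the Gsta3 shares were 30.3% in Post-T 2 and 7.68% to 23.3% in the other mice, so Post-T 2 was highest there too. Gsta2 had 39.8 and 74.8 CPM in Ctrl, 18.3 and 19.8 in Pre-T, and 15.3 and 48.1 in Post-T (Pre-T against Ctrl, edgeR adjusted p = 0.266). Gsta4, which handles lipid peroxidation aldehydes, had 3.9 to 9.2 CPM in 5 mice and 29.7 in Post-T 2.

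In the mu class, the mice differed within the Ctrl group. Gstm3 had 38.7 and 4.4 CPM in Ctrl, 121 and 68.2 in Pre-T, and 14.7 and 77.0 in Post-T. Gstm2 had 21.3 and 4.8, 41.7 and 40.3, and 42.4 and 58.4, and Gstm7 had 46.2 and 7.1, 17.2 and 18.1, and 5.7 and 4.8. Ctrl 1 was above Ctrl 2 for all 7 mu genes, Gstm1 included at 313 against 159 CPM. Gstm1 was 309 and 388 in Pre-T and 82.4 and 322 in Post-T. None of the 7 passed edgeR's test, and DESeq2 gave 0.035 for Gstm2 and 0.025 for Gstm7 in Post-T against Ctrl.

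Theta class genes and Mgst1 completed the abundant members. Gstt2 had 74.5 and 168 CPM in Ctrl, 62.0 and 46.5 in Pre-T, and 94.3 and 200 in Post-T (Post-T against Pre-T, edgeR adjusted p = 0.125, DESeq2 0.012). Gstt1 had 37.6 to 53.5 in 5 mice and 135 in Post-T 2, and Gstt3 stayed under 10 CPM throughout. Mgst1, the membrane-bound enzyme of the endoplasmic reticulum and mitochondria, had 496 and 383 CPM in Ctrl, 641 and 799 in Pre-T, and 248 and 221 in Post-T. Its 3 groups did not overlap, with Pre-T highest and Post-T lowest (Post-T against Pre-T −1.30 ± 0.28, edgeR adjusted p = 0.0731, DESeq2 0.0016). Its relative Mgst3 had 1.6 and 4.4 CPM in Ctrl, 9.7 and 9.9 in Pre-T, and 4.4 and 8.9 in Post-T (Pre-T against Ctrl, edgeR adjusted p = 0.331).

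**Figure D3:**
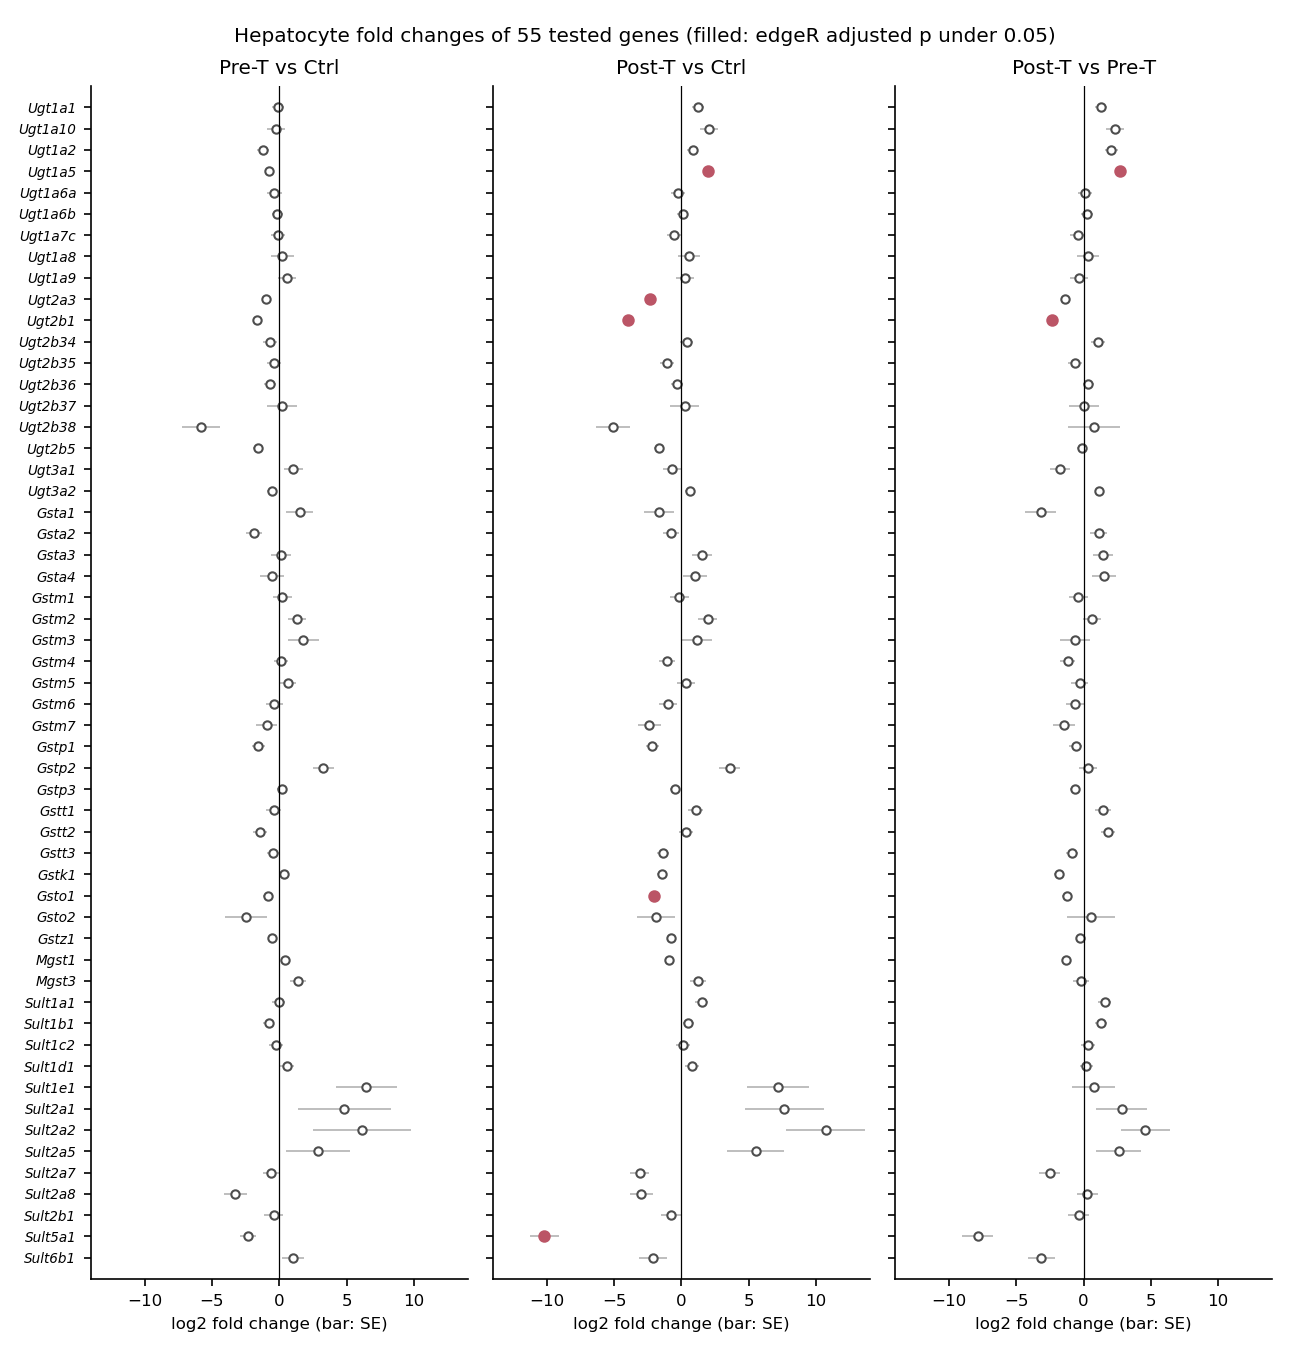
Each point is the hepatocyte log2 difference of 1 of the 55 tested genes in 1 comparison, with a bar of 1 SE worked back from the F statistic. Filled points mark an edgeR adjusted p under 0.05. No point is filled in Pre-T against Ctrl, 5 are filled in Post-T against Ctrl and 2 in Post-T against Pre-T. Wide bars mark the Sult2a genes and Sult1e1, and the fitted values of genes at 0 in a group depend on the prior count.

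The 2 mice of a group were then compared with each other. With 1 CPM added, 9 of the 56 genes differed by over 4-fold between the Post-T mice (Ugt3a1, Gsta3, Gsta4, Gstm3, Gstp2, Sult1e1, Sult2a1, Sult2a2 and Sult2a8), 2 between the Ctrl mice (Gstm3 and Gstm7) and 0 between the Pre-T mice. Over all 18568 tested genes the shares were 4.53%, 0.517% and 0.0754%. Hepatocytes of the Post-T mice also differed in depth and in the pericentral gene Glul, which stood at 1430 CPM in Post-T 1 and 5373 in Post-T 2. The part of these in the differences was not tested.

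Many liver enzymes are made mainly near the central vein or mainly near the portal tract. Hepatocytes of each mouse were ranked by a list of 8 pericentral genes (Glul among them) less a list of 8 periportal genes, and the upper and lower terciles were compared as a description. The cut makes a range, not a cell type, and 0 to 107 nuclei per mouse had a score of exactly 0. Of 45 genes with at least 100 UMIs in the split nuclei, 10 were higher in the pericentral tercile in all 6 mice (Ugt1a10, Ugt1a5, Ugt3a1, Ugt3a2, Gstm1, Gstm2, Gstm6, Gstm7, Gstt1 and Gstt2), and 0 were higher in the periportal tercile in all 6. Of 12523 genes with as many UMIs, the 16 ranking genes left out, 4.69% and 7.2% were. Sult5a1 was periportal in each of the 4 mice that had any of it, at 3.8 against 20.6 CPM in Ctrl 1, 3.7 against 19.0 in Ctrl 2, 0.50 against 3.5 in Pre-T 1 and 1.9 against 7.4 in Pre-T 2, pericentral value first.

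Sult2a8 was pericentral, at 2497 against 911 CPM in Ctrl 1, 2156 against 458 in Ctrl 2, 370 against 44.6 in Pre-T 1 and 470 against 48.9 in Pre-T 2. Post-T 1 had 79.1 against 37.9, and Post-T 2 had 303 against 318. Gstm2 had 45.7 against 4.2 CPM in Ctrl 1 and 99.7 against 13.9 in Pre-T 1. Gsta3 had 942 against 217 in Ctrl 1 but was not higher in the pericentral tercile in all 6 mice. In Post-T 2 no gene of the 45 differed between terciles by over 1 log2 unit, and its lower tercile still had 4053 CPM of Glul against 13 to 15.5 in Ctrl. Depth also differed between terciles, most in Pre-T 1, with medians of 1678.5 and 6454.5 UMIs. In whole hepatocytes the pericentral list had 5 of 8 genes called higher and the periportal list 5 of 8 called lower in Post-T against Ctrl (edgeR), where 4.04% of all genes were called, with medians of 2.75 and −4.86 beside 0.00 over all genes. The part of zonation in these differences was not tested.

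**Figure D4:**
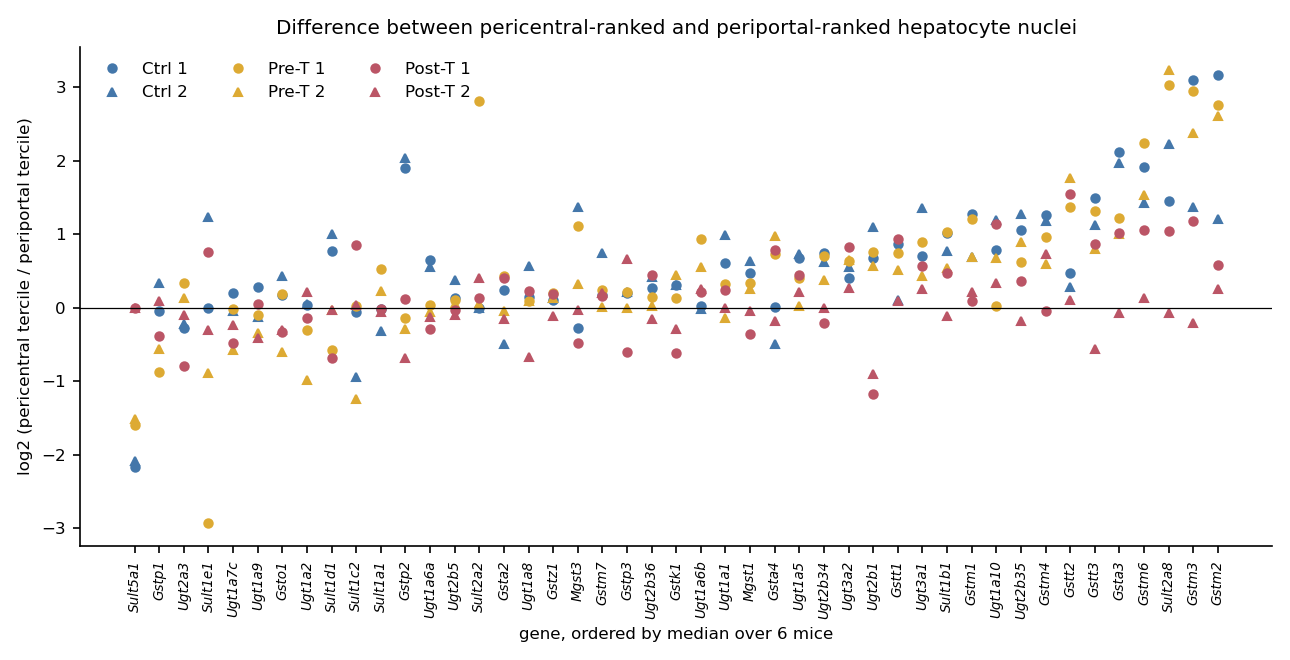
Each point is the log2 ratio of the pericentral tercile to the periportal tercile of a mouse's hepatocytes, with 1 CPM added, for 45 genes ordered by their median over 6 mice. Sult5a1 is lowest (median −1.56), Gstm2, Gstm3 and Sult2a8 are highest (1.91, 1.87 and 1.84), and Post-T 2 (red triangles) stays within 1 log2 unit of 0.

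Genes that supply or surround conjugation were taken from lists, and their counts stand beside 0.0162%, 4.04% and 1.23% of all genes called, for the Pre-T mice compared with Ctrl and the Post-T mice compared first with Ctrl and then with Pre-T. The 15 measured cofactor genes, such as Ugdh for UDP-glucuronic acid, Papss2 for PAPS and Gclc for glutathione, had 0 of 15 called in each hepatocyte comparison (edgeR), and their median in Post-T against Ctrl was −0.32. Gclc was at 1425 and 700 CPM in Ctrl, 840 and 772 in Pre-T, and 123 and 339 in Post-T. Of 11 tested antioxidant response genes, 1 rose in Post-T against Ctrl. It was Keap1, the inhibitor of Nrf2, at 1.11 ± 0.19 (edgeR adjusted p = 0.0385), and the list's median was 0.71. In Pre-T against Ctrl, 0 of the 11 were called and the median was 0.91. Of 15 nuclear receptors and regulators and 10 conjugate transporters, 0 were called in each comparison. Of 9 oxidase targets of nuclear receptors, Cyp4a10, a fatty acid hydroxylase under PPARα, rose by 4.25 ± 0.36 (edgeR adjusted p = 0.0126). Of 16 other conjugating enzymes, the acetyltransferase-family genes Nat8f1 and Nat8f2 fell by 1.96 ± 0.31 and 1.89 ± 0.25 on the log2 scale in Post-T against Ctrl (edgeR adjusted p = 0.0353 and 0.0254). Of 5 tested hydrolases of conjugates, 0 were called.

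Outside hepatocytes, Hepatocyte marker RNA was measured in every class. Whether it came from released RNA, doublets or misnamed nuclei was not tested. The median ratio of a class to hepatocytes of the same mouse over the Hepatocyte marker genes was 0.39 to 0.89 in endothelial nuclei, 0.29 to 0.82 in fibroblasts and 0.27 to 0.70 in macrophages. The summed level of the 56 genes stood at 0.42 to 0.71, 0.34 to 0.56 and 0.22 to 0.57 of hepatocytes in the same 3 classes. A level in another class was therefore read beside the marker ratio.

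Like the hepatocytes, endothelial nuclei of the 3 groups lay mostly in different clusters, whereas fibroblasts did so only in part. Of the endothelial nuclei, 1 cluster held 735 and 862 of the Ctrl nuclei, another 280 and 852 of the Pre-T nuclei and another 1571 of the 1596 Post-T 2 nuclei. A shallow cluster, with a median of 890 UMIs and all 10 Hepatocyte markers raised, held 501 of the 755 nuclei of Post-T 1. Of the fibroblasts, 1 cluster held 443 and 678 Ctrl nuclei and 0 to 3 of each other mouse. Another held 321 and 374 Pre-T and 136 Post-T 1 nuclei, beside 68 and 31 of Ctrl and 5 of Post-T 2. A cluster of all 3 groups held 344 and 396 Ctrl, 134 and 171 Pre-T, and 78 and 49 Post-T nuclei. Post-T 2 had 57 fibroblasts in all. The part of these clusters in the differences was not tested.

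In endothelial nuclei, 1 of 51 tested genes was called in Pre-T against Ctrl (1.19% of all genes), 5 in Post-T against Ctrl (9.53%) and 1 in Post-T against Pre-T (5.37%). Sult2a8 was at 808 and 657 CPM in endothelial nuclei of Ctrl, 47.6 and 70.7 in Pre-T, and 27.2 and 63.8 in Post-T, and was called lower in both against Ctrl (edgeR adjusted p = 0.040 and 0.011). Gstz1, Sult5a1 and Ugt2b1 were also called lower and Gstm2 higher in Post-T against Ctrl, and Ugt1a5 was called higher in Post-T against Pre-T. With each nucleus named on its own, all these endothelial calls were lost (0.0%, 1.36% and 0.0% of all genes in the 3 comparisons). The Sult2a8 call in Pre-T was also lost with the replicate number as a block (0.202%), as was the Gstm2 call in Post-T (7.06%). In fibroblasts, Sult2a8 and Ugt2b1 were the 2 of 44 tested genes called, both lower, in Pre-T and in Post-T against Ctrl (3.29% and 2.87% of all genes). Both were lost in both comparisons with clusters at a resolution of 2 (0.0467% and 0.267% of all genes). In Pre-T against Ctrl, Ugt2b1 was also lost with the expression filter of edgeR (3.67%). In Post-T against Pre-T, edgeR called 0 of 44 in fibroblasts, where 0.0% of all genes were called. At an unadjusted edgeR p under 0.05 stood 6 of the 44, where 1791 of all 16023 genes did. DESeq2 called 3, 8 and 3 in endothelial nuclei (4.77%, 10.7% and 7.44% of all genes) and 2, 4 and 1 in fibroblasts (2.87%, 3.59% and 0.58%). Sult2a8 in fibroblasts was at 623 and 484 CPM in Ctrl and 13.3 to 64.4 in the other mice. Sult2a8, Ugt2b1 and Gstz1 stood below the hepatocytes of the same mouse in both classes and are not read as expression by those cells. Whether these nuclei transcribe them was not tested. Gstm2 was above the hepatocytes in endothelial nuclei of Post-T 2, at 86.9 against 58.4 CPM, within the highest ratio of 1.67 seen for a Hepatocyte marker.

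In all kept nuclei together, edgeR called 3 of 56 in Post-T against Ctrl (2.22% of all genes), Ugt2b1 and Sult5a1 lower and Ugt1a5 higher. All 3 calls were lost with the replicate number as a block (0.00459% of all genes) and with only the 4 mice of the comparison fitted (0.0%). In the other 2 comparisons edgeR called 0, where 0.0% of all genes were called. At an unadjusted edgeR p under 0.05 stood 13 and 16 of the 56, where 4291 and 5315 of all 21790 genes did. DESeq2 called 8, 18 and 10 of the 56 in the 3 comparisons (9.58%, 14.7% and 12.9% of all genes). In these sums, fewer hepatocytes and less RNA per hepatocyte cannot be told apart.

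By their mean over the mice with at least 20 nuclei of a class, 24 of the 56 genes were higher in some other named class than in the hepatocytes of the same mice, on 1 to 337 UMIs there. Of such classes, the highest mean was in erythroid nuclei of 4 mice for Ugt1a1, Gsta1, Gsta4, Gstm1, Gstm2, Gstm5, Gstm6, Gstp3, Gstt1, Gstk1, Mgst1, Mgst3 and Sult2a5. It was in plasmacytoid dendritic nuclei of 4 mice for Ugt2b38, Gstp1, Gsto1, Gsto2 and Sult6b1, in B cells for Ugt1a5 and Gstm4, in T or NK cells for Ugt2b37, Mgst2 and Sult2b1, and in cholangiocytes for Sult1c2. No such count is given for all genes. The highest Hepatocyte marker ratio in a mouse was 1.79 in erythroid, 1.21 in plasmacytoid dendritic, 2.03 in B, 2.40 in T or NK cells and 1.07 in cholangiocytes. Mgst1 in erythroid nuclei, for example, was at 496 against 477 CPM. With at least 20 UMIs and a level above the highest Hepatocyte marker ratio in every mouse, limits chosen after the values were seen, 5 pairs of gene and class were found. No test was made between classes. The levels that follow, with their intervals, are of UMIs summed over the mice of a class and not means over mice. Sult2b1, which sulfates cholesterol, had 12.4 CPM in cholangiocytes (23 UMIs, 95% counting interval 7.86 to 18.6) against 0.36 in hepatocytes of the same mice. In T or NK cells Sult2b1 had 18.9 CPM (59 UMIs, 14.4 to 24.4), with a mean over mice of 16.1, and lay above the marker ratio in 5 of 6 mice, the exception being Post-T 1 with 0 UMIs in 86 nuclei.

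Gsta4 had 20.5 CPM in cholangiocytes (38 UMIs, 14.5 to 28.1) against 7.6 in hepatocytes of the same 5 mice. Gsto1 had 18.3 CPM in macrophages (154 UMIs, 15.5 to 21.4) and 16.01 in monocytes or neutrophils (40 UMIs, 11.4 to 21.8) against 11.6 in hepatocytes. In macrophages Gsto1 was at 18.9 and 24.3 CPM in Ctrl, 14.9 and 24.99 in Pre-T, and 10.0 and 6.0 in Post-T. Gstt1 had 60.4 CPM in mesothelial nuclei (65 UMIs, 46.6 to 77.0) against 43.8 in hepatocytes of the same 3 mice, and 56.3 in fibroblasts, above the marker ratio in 5 of 6 mice. Mgst2, which can form leukotriene C4, had 10 UMIs in T or NK cells and 3 in the hepatocytes of all mice. Sult1c2 had 16.2 CPM in cholangiocytes (30 UMIs), with a mean over mice of 12.3 and 41.0 in Ctrl 1.

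**Figure D5:**
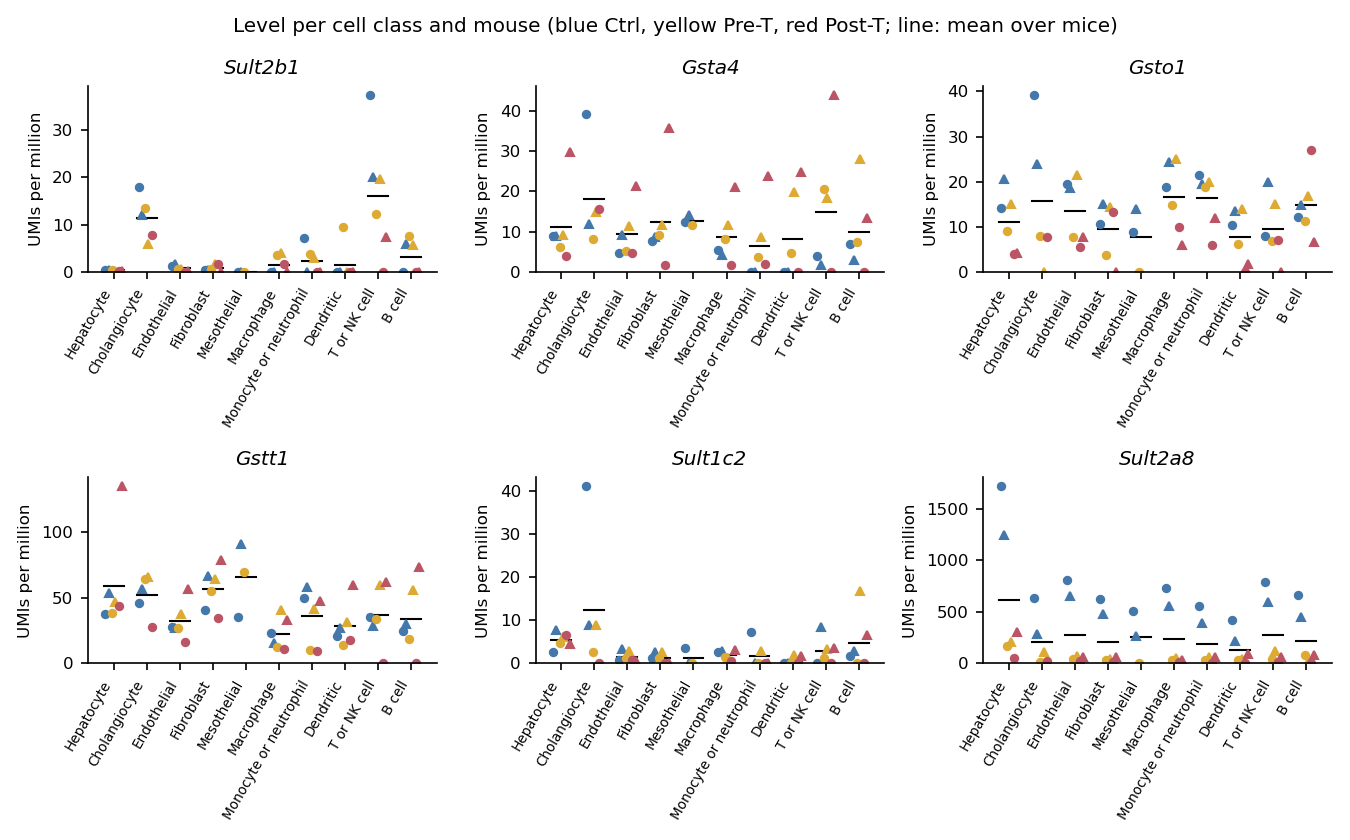
Each panel gives 1 gene's level in UMIs per 1000000 by cell class and mouse, with circles for replicate 1, triangles for replicate 2, colors for the 3 groups and a line at the mean over mice with at least 20 nuclei. Sult2b1 is near 0 in hepatocytes and detected in cholangiocytes and T or NK cells, while the endothelial and fibroblast levels of Sult2a8 lie below those of the hepatocytes of the same mouse.

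The unnamed deep cluster held 867 nuclei of Pre-T 1 and 641 of Post-T 1. Its levels differed from the named hepatocytes of the same mouse. Gstm3 was at 255 CPM there against 121 in the Pre-T 1 hepatocytes, and at 4.3 against 14.7 in Post-T 1. Gsta3 was at 1428 against 855 in Pre-T 1 and 665 against 564 in Post-T 1, Ugt3a2 at 193 against 94.6 and 162 against 141, and Ugt2b36 at 258 against 492 and 83.6 against 304. With this cluster added to hepatocytes, 3 of the 56 genes were called in Post-T against Ctrl (Sult5a1, Ugt2a3 and Ugt2b1), where 1.75% of all genes were, and 0 in Post-T against Pre-T, where 0.0% of all genes were. With the shallow cluster added instead, 4 were called in Post-T against Ctrl, Gsto1 being lost, where 3.02% of all genes were, and Ugt1a5 alone in Post-T against Pre-T, where 0.276% of all genes were.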

How the data were processed

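Nuclear RNA of 6 mouse livers was measured by single-nucleus RNA-seq, 1 library per mouse, with 10x Genomics 3′ Next GEM v3.1 chemistry. The deposited matrices hold whole UMI counts per gene and barcode, which the authors made with Cell Ranger 6.1.1 on mm10. Whether intronic reads were counted is not given in the sources used here. Groups were taken from the labels.

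Nuclei with over 200 and under 5000 detected genes and under 5% mitochondrial UMIs were kept, as in the study's methods. No doublet caller was run beyond this gene maximum. Nuclei were clustered with scanpy 1.11.5 (Leiden, Python 3.11.15), with the 56 genes left out of the variable genes. Clusters were named from marker lists, so class shares may differ from the study's own. Hepatocyte clusters with a median under 1500 UMIs were kept apart.

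UMI counts were summed per mouse and class. The 3 groups were fitted together with edgeR 4.0.16 in R 4.3.3 (quasi-likelihood test, TMM, genes with at least 10 UMIs in sum, Benjamini-Hochberg adjustment over all tested genes). This leaves 3 residual degrees of freedom. The test gives no SE of its own, so the SE of a log2 difference is its size divided by the square root of the F statistic. DESeq2 1.42.0 was an alternative, and other scalings, filters, class definitions and left-out mice were tried. Each mouse is 1 replicate. The p-values rest on the spread between mice of a group, pooled over all 3 groups and adjusted with information from all genes. The mice of the group outside a comparison thus enter its p-values. The edgeR step was tested on simulated counts, with 100 genes given a log2 change of 2 and 100 given 3. For hepatocytes of Pre-T against Ctrl it recovered 38% and 75% of these, with 15 false calls among 18159 genes tested. For fibroblasts of the same comparison it made 47 false calls among 15434 genes.

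Shares of nuclei with a UMI were taken after thinning to 500 UMIs, the lowest count of any barcode, so no nucleus was left out. Intervals are exact and cover counting error only. Genes named by rule were those called, the 3 with the highest hepatocyte mean in each family, those with a higher mean in another named class and those at the limit. Other genes named (among them Ugt2b38, Ugt1a10, Gstm7, Sult1e1, Sult1b1, Sult1d1, Sult2a1, Sult2a2, Sult2a5, Sult2a7 and Gclc) were chosen after their values were seen. The members and lists were chosen with earlier results of these data known.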

Additional observations from a re-analysis of the deposited data

Results flagged for a closer look

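Of the 11 conjugation genes under the limit of 30 UMIs, which entered no comparison, Sult2a6 alone had a library outside Ctrl whose 95% counting interval, relative to its total UMIs, lay above that of both Ctrl libraries summed. It had 9 UMIs in the Post-T 2 library against 1 in each Ctrl library. It had 1 UMI in Pre-T 1 and 0 in Pre-T 2 and Post-T 1, and no test was made on these counts. Among the others, some exceeded both Ctrl libraries with overlapping intervals. Sult2a3 had 7 and 3 UMIs in Pre-T against 2 and 1 in Ctrl, Sult4a1 had 4 and 3 in Pre-T against 1 and 0, and Sult2a4 had 5 in Post-T 2 against 2 and 1.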

How the results depend on the processing

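Each count here is of the 56 genes with an edgeR adjusted p under 0.05 unless DESeq2 is named, and sets of 3 counts give first Pre-T, then Post-T, each compared with Ctrl, and last Post-T compared with Pre-T. The shares of all tested genes called in the same fits follow in parentheses in the same order. DESeq2 gave 6, 19 and 12 in hepatocytes (4.88%, 12.6% and 12.0%), 3, 8 and 3 in endothelial nuclei (4.77%, 10.7% and 7.44%), 2, 4 and 1 in fibroblasts (2.87%, 3.59% and 0.58%), and 8, 18 and 10 in all kept nuclei (9.58%, 14.7% and 12.9%). Fitting only the 4 mice of a comparison gave 9, 0 and 0 in hepatocytes (7.45%, 0.102% and 0.0%), 5, 4 and 0 in endothelial nuclei (6.4%, 5.37% and 0.0197%), 3, 2 and 0 in fibroblasts (4.58%, 1.58% and 0.0%), and 3, 0 and 0 in all kept nuclei (5.16%, 0.0% and 0.0%). Without a low-count filter the counts were 0, 5 and 3 in hepatocytes (0.0605%, 2.87% and 1.19%), 2, 9 and 4 in endothelial nuclei (4.04%, 9.22% and 7.11%), 10, 16 and 3 in fibroblasts (8.19%, 7.17% and 3.0%), and 0, 5 and 2 in all kept nuclei (0.456%, 3.8% and 1.02%). RLE size factors gave 1 in hepatocytes of Post-T against Pre-T (1.17%). The expression filter of edgeR gave 1 in fibroblasts of Pre-T against Ctrl (3.67%) and 4, with Sult2a7 gained, in all kept nuclei of Post-T against Ctrl (3.41%). In the same comparison all deposited barcodes gave 3 (3.39%), with Ugt1a5 lost (adjusted p = 0.0535) and Sult2a7 gained. Clusters at a resolution of 2 gave 1 in hepatocytes of Post-T against Pre-T (0.459%), 3 and 0 in endothelial nuclei of Post-T against Ctrl and Pre-T (2.83% and 0.721%), and 0 and 0 in fibroblasts of Pre-T and Post-T against Ctrl (0.0467% and 0.267%). Naming each nucleus on its own gave 1 and 8 in hepatocytes of Pre-T and Post-T against Ctrl (0.29% and 5.3%), 0, 0 and 0 in endothelial nuclei (0.0%, 1.36% and 0.0%), and 4 in fibroblasts of Pre-T against Ctrl (3.66%). Chosen after seeing the data, adding the unnamed deep cluster gave 0, 3 and 0 in hepatocytes (0.0%, 1.75% and 0.0%), adding the unnamed shallow cluster gave 0, 4 and 1 (0.0319%, 3.02% and 0.276%), and adding the nuclei of low depth gave 0, 4 and 3 (0.111%, 4.2% and 2.05%). The causes of these differences were not tested.

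Leaving out 1 mouse at a time gave ranges of 0 to 8, 0 to 20 and 0 to 22 in hepatocytes (0.0% to 6.75%, 0.0% to 15.9% and 0.0% to 18.6%), 0 to 5, 0 to 11 and 0 to 7 in endothelial nuclei (0.0% to 6.03%, 0.0% to 8.85% and 0.0% to 8.19%), 0 to 4, 2 to 3 and 0 to 0 in fibroblasts (0.336% to 4.48%, 0.655% to 3.2% and 0.0% to 0.64%), and 0 to 7, 0 to 13 and 0 to 13 in all kept nuclei (0.0% to 6.44%, 0.0% to 7.68% and 0.0% to 7.88%). Where this left 1 mouse in a group, that mouse was assumed to vary like the others. The labels number the mice 1 and 2 in each group, and what a shared number means was not known. Deviations of same-numbered mice correlated at −0.213 (Ctrl and Pre-T), 0.119 (Ctrl and Post-T) and −0.200 (Pre-T and Post-T). The unnamed deep cluster came from Pre-T 1 and Post-T 1 alone (867 and 641 nuclei). Whether same-numbered mice were handled together was not tested. With the replicate number as a block the counts were 0, 4 and 0 in hepatocytes (0.0%, 1.16% and 0.0%), 0, 5 and 1 in endothelial nuclei (0.202%, 7.06% and 2.86%), 3, 3 and 0 in fibroblasts (3.2%, 2.81% and 0.0125%), and 0, 0 and 0 in all kept nuclei (0.0%, 0.00459% and 0.0%). No called gene reversed its direction under any alternative run. Of the 55 tested genes, whether called or not, 19, 20 and 25 changed sign in hepatocytes under at least 1 alternative, among them 1 of 22, 5 of 33 and 4 of 28 with a difference of 1 log2 unit or more. The share of hepatocytes with a UMI of the median gene, averaged over mice, was 0.651% after thinning and 7.35% as counted. Of the hepatocyte family shares, 46 moved by less than the spread between mice under other class definitions and 14 by more, and of the levels 272 and 64. Mgst2, with 3 hepatocyte UMIs, had too few to be tested there.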
